A study of Mus musculus with 44 samples.

Results

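The 8 genes described here encode CXC chemokines, small secreted proteins that steer leukocytes along gradients. They are Cxcl1, Cxcl2, Cxcl3, Cxcl9, Cxcl10, Cxcl11, Cxcl14 and Cxcl16, taken by symbol from the 24940 genes listed in each gene table. The rule was the symbol, but the list was chosen with earlier results of these data known. Cxcl1, Cxcl2 and Cxcl3 carry the ELR motif, act through the receptor Cxcr2 and draw neutrophils. Cxcl9, Cxcl10 and Cxcl11 are the interferon-inducible ligands of Cxcr3 and draw activated T cells and NK cells. Cxcl16 is made as a membrane protein that binds Cxcr6 and can be shed by Adam10, and Cxcl14 is a homeostatic chemokine best known from epithelia. In macrophages, TLR4 signals through MyD88 to NFκB and through TRIF and the kinase TBK1 to IRF3 and type I interferon, and the CXC family holds well-known targets of both arms.

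The 44 RNA-seq libraries came from bone marrow-derived macrophages (BMDMs) of adult C57BL/6 mice in 4 experiments, with 2 libraries in each of 22 groups. The first experiment set BMDMs of genotype NCoR flox/flox (WT) against NCoR flox/flox, LysMCre (NKO), in which Cre under the myeloid LysM locus removes the nuclear corepressor NCoR. Both genotypes received vehicle (Veh), KLA (Kdo2 lipid A, a TLR4 agonist), poly I:C (PolyIC, a double-stranded RNA mimic that acts on TLR3), IFNb or IL4 for 6 h, or RANKL, the osteoclast differentiation factor, for 12 h. The other experiments used vehicle or KLA for 6 h: wild type cells with Veh, KLA, or KLA and the HDAC3 inhibitor RGFP966 (RGFP966_KLA), wild type cells with DMSO_Veh, DMSO_KLA, or KLA and a TBK1 inhibitor (TBK1i_KLA), and cells of genotype Pgc1b flox/flox or Pgc1b flox/flox, LysMCre with Veh or KLA. Both inhibitors were added at the start of the serum starvation that preceded KLA. No group received an inhibitor without KLA, so their comparisons hold at KLA only.

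The libraries held 8323493 to 16783155 gene-assigned counts, and 3 counts corresponded to 0.179 to 0.36 CPM. Levels below are CPM, gene counts scaled to the size of the library, with TMM scaling within an experiment, and ± is the SD of 2 libraries unless SE is written. Ncor1 lay between 49.4 and 64.9 CPM in the NKO libraries and between 133 and 215 CPM in the other libraries. The summed count of Ppargc1b, the gene floxed in the Pgc1b experiment, was not lower with Cre. It was 7.63 and 9.03 CPM before TMM scaling in the Pgc1b_flox_Cre_KLA libraries against 5.16 and 5.96 CPM in Pgc1b_flox_KLA, and a whole-gene count need not fall when an exon is removed. The study examined PGC1β protein of both genotypes by immunoblot, which these counts do not measure. Lyz2, the gene at the LysM locus, was at 4391 to 4531 CPM in the Pgc1b_flox_Cre libraries and at 8045 to 8321 CPM in the Pgc1b_flox libraries. The 8 macrophage markers summed to 9531 to 24925 CPM in every library and the 7 lymphocyte markers to at most 8.2 CPM. Neutrophil markers stayed at or below 22.8 CPM outside RANKL but summed to 1303 and 1434 CPM in the WT_RANKL libraries and 1772 and 1832 CPM in NKO_RANKL. The date stamps in the library names put WT_KLA 115 days, NKO_KLA 1516 days and both RANKL groups 536 days before the vehicle, poly I:C, IFNb and IL4 groups of the NCoR experiment, so that its KLA and RANKL responses cannot be told apart from the stamp. Xist was at or below 0.1 CPM and 4 Y-linked genes summed to at least 38.3 CPM in NKO_KLA and the Pgc1b experiment, while the other 34 libraries had Xist at 601 CPM or more and the Y-linked sum at or below 0.557 CPM.

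Of the 8 genes, 6 lie in a pair of clusters on chromosome 5, given here by the mm10 coordinates of the counted transcripts. Cxcl3 (chr5:90786101-90788093), Cxcl1 (chr5:90891245-90893115) and Cxcl2 (chr5:90903899-90905938) follow each other on the plus strand. Cxcl9 (chr5:92321331-92328079), Cxcl10 (chr5:92346639-92348889) and Cxcl11 (chr5:92359545-92363296) follow each other on the minus strand, and Cxcl14 (chr13:56288643-56296551) and Cxcl16 (chr11:70454389-70459984) are also read from the minus strand. RefSeq lists Cxcl11 as a transcribed pseudogene in the C57BL/6J assembly, so its values are transcript counts only. In the GENCODE annotation 552 exon bases of Cxcl16 are shared with Zmynd15 on the opposite strand and 133 exon bases of Cxcl10 with Art3. Zmynd15 was counted at 31.1 to 207 CPM before TMM scaling and Art3 at no more than 1.11 CPM. The study's methods describe strand-specific counting but the deposited counting command shows no strand option, so the Cxcl16 values may hold reads of Zmynd15. A processed pseudogene, Gm2673, shares 1582 exon bases with Cxcl11 on the opposite strand. Of 2159 windows of 50 bases in the Cxcl2 transcripts, 126 also occur in Cxcl3.

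The 250 bases before the start of 4 members are shown because these genes respond most differently below: 3 ELR ligands, and Cxcl10 as the most abundant Cxcr3 ligand. The sequences are from RefSeq (GRCm38.p6, the build named mm10), read 5′ to 3′ on the strand of the gene, with matches to any of 4 motifs in capitals.
Cxcl1 (chr5:90890995-90891244, plus strand): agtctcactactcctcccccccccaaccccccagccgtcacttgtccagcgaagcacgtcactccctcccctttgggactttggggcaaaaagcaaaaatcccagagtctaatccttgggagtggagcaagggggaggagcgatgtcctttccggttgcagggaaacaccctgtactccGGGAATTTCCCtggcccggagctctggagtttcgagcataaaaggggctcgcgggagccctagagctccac
Cxcl2 (chr5:90903649-90903898, plus strand): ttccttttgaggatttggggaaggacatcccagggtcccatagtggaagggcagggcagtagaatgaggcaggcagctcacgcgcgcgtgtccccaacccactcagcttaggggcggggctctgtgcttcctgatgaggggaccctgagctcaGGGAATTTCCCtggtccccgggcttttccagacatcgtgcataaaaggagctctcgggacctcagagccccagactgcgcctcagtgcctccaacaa
Cxcl3 (chr5:90785851-90786100, plus strand): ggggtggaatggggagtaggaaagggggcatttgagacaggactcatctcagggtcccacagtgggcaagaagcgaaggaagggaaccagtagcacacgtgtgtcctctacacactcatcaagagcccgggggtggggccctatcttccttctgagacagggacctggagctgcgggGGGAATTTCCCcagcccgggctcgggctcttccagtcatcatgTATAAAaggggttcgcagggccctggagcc
Cxcl10 (chr5:92348890-92349139, minus strand): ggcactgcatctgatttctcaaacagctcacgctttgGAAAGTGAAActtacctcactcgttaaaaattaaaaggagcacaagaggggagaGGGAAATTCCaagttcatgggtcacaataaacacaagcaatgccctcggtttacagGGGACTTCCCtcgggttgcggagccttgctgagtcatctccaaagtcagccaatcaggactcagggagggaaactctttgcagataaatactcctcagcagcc
The motifs were an NFκB site (GGGA, any 2 bases, T, any base, CC), an interferon-stimulated response element or ISRE (GAAA, any 2 bases, GAAA), a GAS element (TTC, any 3 bases, GAA) and a TATA box (TATAAA), each searched on both strands. Cxcl1, Cxcl2 and Cxcl3 share the same run, GGGAATTTCCC, which holds the NFκB letters on both strands in overlap and starts 71, 97 and 73 bases before the start site. Cxcl10 holds an NFκB match 159 and another 103 bases before its start and an ISRE match, GAAAGTGAAA, 213 bases before it. Cxcl9 holds only TATAAA, 195 bases before the start. Cxcl14 holds a GAS match, TTCTGAGAA, and an ISRE match, GAAACAGAAA, 191 and 172 bases before its start, and no NFκB letters. Among 32851 promoter windows of the same length, 3.33% hold the NFκB letters, 2.98% the ISRE, 7.02% the GAS element and 12.4% TATAAA. These are letter matches in a short window and say nothing about binding in these cells. Cxcl11 and Cxcl16 have no entry in the promoter table used.

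In resting macrophages the family was nearly silent apart from Cxcl16 and Cxcl14. Cxcl16 ranged from 90.1 to 255 CPM in the 6 vehicle groups and Cxcl14 from 9.95 to 44.1 CPM. Cxcl2 lay between 1.58 and 5.11 CPM, Cxcl10 between 0.823 and 5.13 CPM, and Cxcl1, Cxcl3, Cxcl9 and Cxcl11 at no more than 1.57 CPM on average. Per kb of exon, the scale on which genes can be compared, Cxcl16 made up 70% to 89.5% of the summed members in those groups. The WT_Veh pair was uneven for the Cxcr3 ligands. Its replicate 2 held 76 counts of Cxcl10 and 39 of Cxcl9 where replicate 1 held 20 and 7.

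**Figure D1:**
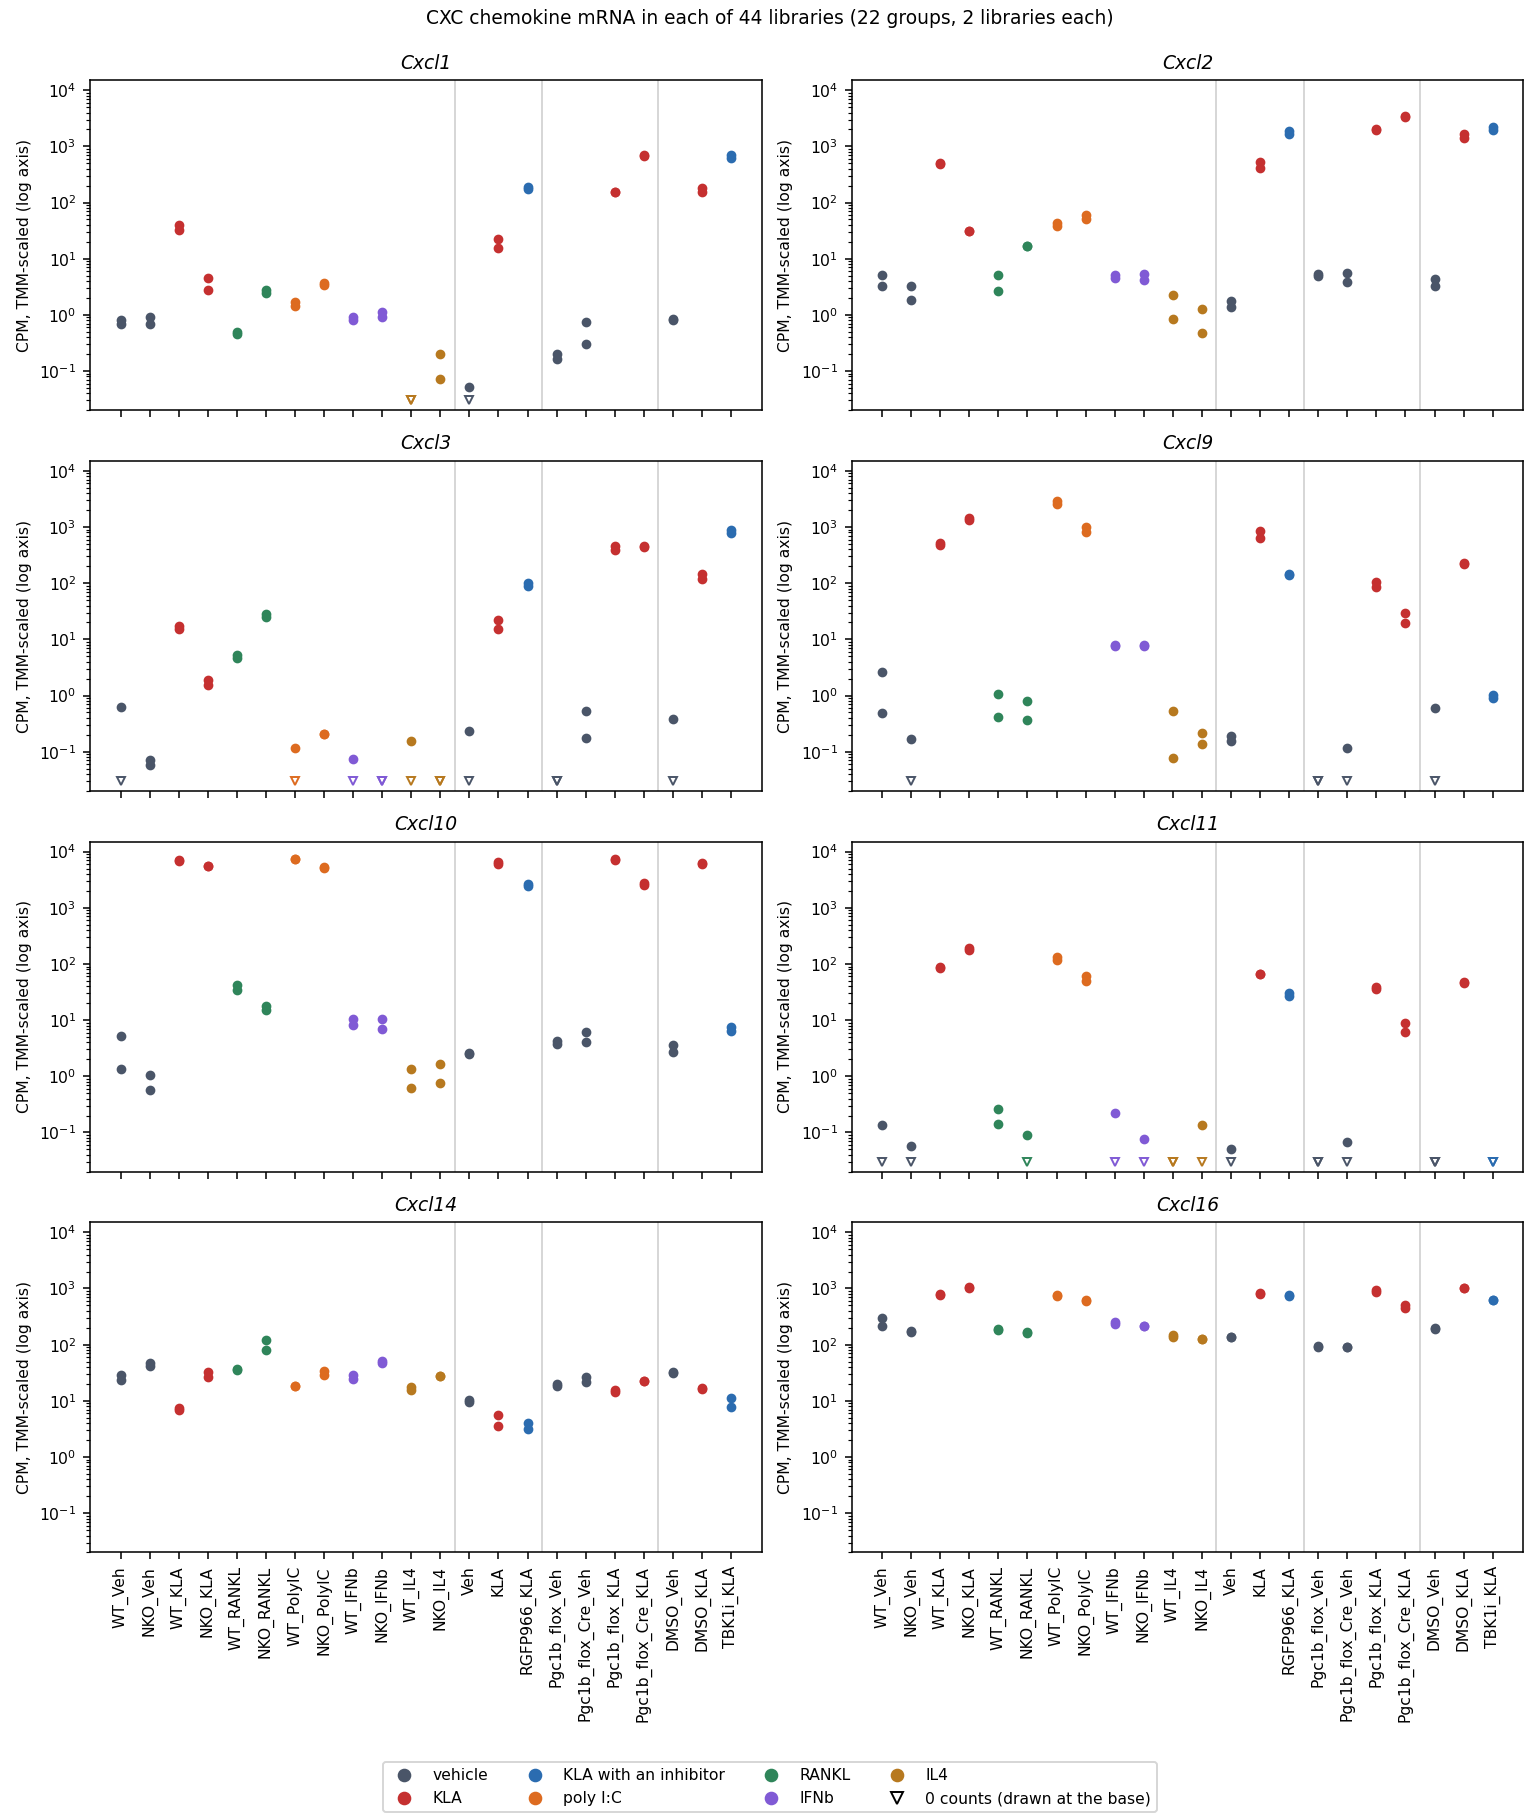
Level of each CXC chemokine in all 44 libraries, as TMM-scaled CPM on a log axis, with 22 groups along the x axis, the 4 experiments divided by grey lines, and libraries with 0 counts drawn as open triangles at the base. Cxcl10 lies at 2480.4 CPM or more in every KLA and poly I:C library except the 2 with the TBK1 inhibitor, where it is 6.31 and 7.44 CPM.

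KLA raised 7 of the 8 members in each of the 4 experiments, all but Cxcl14. A gene was called where edgeR's quasi-likelihood test gave an adjusted p below 0.05 and the fold exceeded 1.5. Of all genes tested in the NCoR experiment 25.4% were called higher and 32.3% lower with KLA, and in the RGFP966, Pgc1b and TBK1i experiments 27.9%, 22.8% and 29.6% were called higher and 32.2%, 25.7% and 29.3% lower. The median of the members' log2 fold changes was 6.29, 8.70, 10.22 and 9.05 in the 4 experiments in that order, beside -0.14, -0.07, -0.05 and 0.02 for all genes tested.

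Among the Cxcr3 ligands, Cxcl10 was the most abundant at KLA. It rose from 1.38 and 5.2 CPM in WT_Veh to 7012 and 6781 CPM in WT_KLA. The log2 fold change was 11.03 ± 0.25 (SE), and 10.37 to 12.28 with 1 library left out. Cxcl10 reached 6255, 7221 and 6093 CPM in the KLA controls of the other experiments. The 4 control groups thus lay between 6093 and 7221 CPM before any joint scaling. Cxcl9 was more spread, with 492 ± 26 CPM in WT_KLA, 743 ± 138 in KLA, 95.6 ± 13.9 in Pgc1b_flox_KLA and 227 ± 6.53 in DMSO_KLA. Cxcl11 was at 0 to 2 counts per library in the vehicle controls and at 281 to 793 counts per library in the KLA controls, which were 37.1 to 86.8 CPM on average. Against its 2 counts in WT_Veh, the ratio was 1267 with a 95% counting interval of 349.8 to 10472.

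The ELR ligands also rose in all 4 experiments, from different floors to different heights. Cxcl1 went from 0.825 and 0.684 CPM in WT_Veh to 32.4 and 39.8 CPM in WT_KLA, a log2 fold change of 5.56 ± 0.26 (SE). Its KLA level was 18.9 ± 5.15 CPM in the RGFP966 experiment but 154 ± 3 CPM in Pgc1b_flox_KLA and 167 ± 21.8 CPM in DMSO_KLA. Cxcl2 reached 492 ± 11.7, 466 ± 88.7, 1971 ± 77.6 and 1557 ± 174 CPM in WT_KLA, KLA, Pgc1b_flox_KLA and DMSO_KLA. Cxcl3 reached 16.4 ± 1.31, 18.8 ± 5.04, 423 ± 41 and 133 ± 21 CPM in the same order. For each ELR ligand no library of WT_KLA or KLA overlapped one of Pgc1b_flox_KLA or DMSO_KLA, a description across experiments that were run and scaled apart. Cxcl3 was at 0 counts in both Pgc1b_flox_Veh libraries and so rose at least 1902-fold there.

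Cxcl16 and Cxcl14 moved in opposite directions with KLA. Cxcl16 rose from 255 ± 54.4 to 792 ± 16.9 CPM in WT cells (log2 fold change 1.64 ± 0.09, SE) and by 2.57 ± 0.06, 3.25 ± 0.07 and 2.40 ± 0.04 on the log2 scale in the RGFP966, Pgc1b and TBK1i experiments. Cxcl14 fell by 1.89 ± 0.30, 1.14 ± 0.19 and 0.96 ± 0.12 on the log2 scale in the NCoR, RGFP966 and TBK1i experiments, where its libraries did not overlap. In Pgc1b_flox cells it was 15 ± 0.859 CPM with KLA and 19 ± 1.03 CPM without, which was not called (edgeR adjusted p = 0.0612).

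In WT cells poly I:C raised all 3 Cxcr3 ligands, while the ELR ligands were at or below 43.9 CPM. It raised 6 members and lowered none past the thresholds, with 22.2% of all genes called higher and 25% lower. Cxcl9 reached 2584 and 2949 CPM (log2 fold change 10.77 with poly I:C and 8.28 with KLA), its highest level in any group, Cxcl10 7296 and 7464 CPM and Cxcl11 119 and 135 CPM. Cxcl2 rose to 43.9 and 38.6 CPM, a log2 fold change of 3.31 ± 0.23 (SE). Cxcl1 rose by 1.03 ± 0.44 (SE) to 1.67 and 1.44 CPM, and this call was lost with either library of either group left out (0.91 to 1.17). Cxcl3 held 1 and 0 counts. ELR ligands made up 0.484% ± 0.0581 of the summed members per kb with poly I:C and 6.8% ± 0.323 with KLA. A direct contrast of these 2 groups was not among the tests, and their date stamps differ by 115 days.

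IFNb, the cytokine itself, raised only Cxcl9 and Cxcl10 among the members, and modestly. Of all genes tested 4.09% were called higher and 2.37% lower. Cxcl9 rose to 7.96 and 7.78 CPM from 0.481 and 2.67 CPM (log2 fold change 2.31 ± 0.45, SE) and Cxcl10 to 8.22 and 10.4 CPM from 1.38 and 5.2 CPM (1.49 ± 0.39, SE). The libraries of the groups did not overlap, but neither call held when only these 2 groups were fitted (adjusted p = 0.0606 and 0.239, edgeR), and Cxcl10 lost its call without WT_Veh replicate 1 (log2 fold change 0.83) or WT_IFNb replicate 2 (1.32). Against IFNb, poly I:C was higher for 5 members, Cxcl2, Cxcl9, Cxcl10, Cxcl11 and Cxcl16, with 20.5% of all genes called higher and 21.5% lower. Cxcl10 was 798-fold and Cxcl9 351-fold higher in that contrast.

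IL4 lowered 4 members and raised none, with 6.46% of all genes called lower and 6.63% higher. Cxcl1 was at 0 counts in both WT_IL4 libraries and at 12 and 10 counts in WT_Veh, at least 3.24-fold lower. Cxcl16 fell by 0.85 ± 0.09 (SE) on the log2 scale to 146 and 138 CPM. Cxcl14 fell by 0.67 ± 0.20 (SE) to 17.6 and 15.4 CPM and Cxcl2 by 1.41 ± 0.45 (SE) to 2.28 and 0.845 CPM. The Cxcl2 call was lost without WT_Veh replicate 2 (-1.05) or WT_IL4 replicate 2 (-0.86), and the Cxcl14 call without WT_Veh replicate 1 (-0.54) or WT_IL4 replicate 2 (-0.58).

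With RANKL for 12 h, Cxcl3 and Cxcl10 were the 2 members called higher, and none was called lower, with 24.1% of all genes called higher and 19.8% lower. Cxcl3 was 4.71 and 5.3 CPM against 0 and 0.616 CPM in WT_Veh (log2 fold change 3.97 ± 0.41, SE), and Cxcl10 was 42.2 and 34.9 CPM (3.55 ± 0.30, SE). The WT_Veh libraries held 0 and 9 counts of Cxcl3. With 1 library left out the log2 fold change ran from 3.00 to 8.92 for Cxcl3 and from 2.89 to 4.80 for Cxcl10. Cxcl1 and Cxcl2, at 0.473 and 3.85 CPM on average, were not called. Time, date stamp and treatment cannot be told apart here. The table headings call these cells osteoclasts and the sample labels call them BMDMs. All 8 neutrophil markers were called higher than in WT_Veh, beside 24.1% of all genes. The 5 lymphocyte markers and the 5 stromal and endothelial markers tested were called higher too. The lymphocyte list summed to at most 5.65 CPM. The macrophage markers summed to 23610 CPM against 17318 CPM in WT_Veh, with 1 of 8 called higher and 6 lower, beside 19.8% of all genes lower. Ppbp, a CXC chemokine of platelets and leukocytes, was at 189 CPM against 0.137 CPM in WT_Veh. The 5 osteoclast markers summed to 90.4 and 92.5 CPM against 53.8 and 65.7 CPM in WT_Veh. In bulk RNA, more cells of a type and more RNA per cell cannot be told apart, and the part of other cells in these values was not tested.

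**Figure D2:**
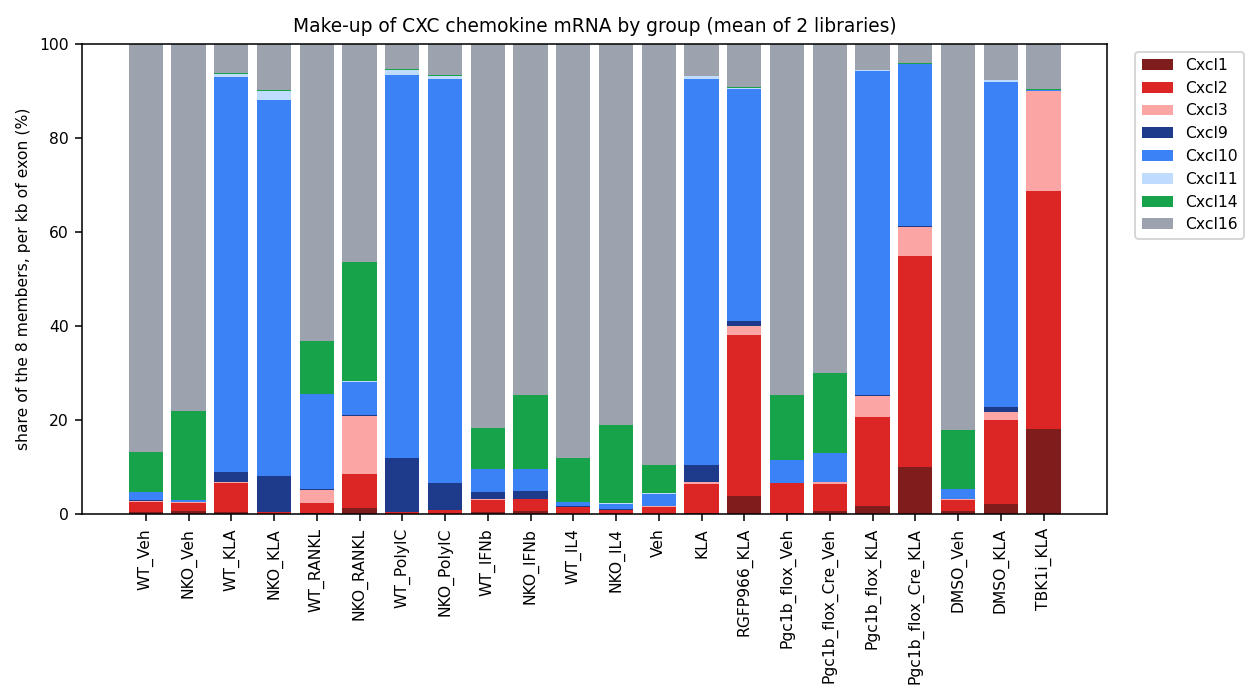
Share of each member in the summed CPM per kb of exon of the 8 members, in percent (y axis), for 22 groups (x axis), as the mean of 2 libraries. Cxcl16 (grey) fills most of the vehicle, IFNb and IL4 bars and Cxcl10 (mid blue) most of the KLA and poly I:C bars, while the ELR ligands (reds) reach 40.1% in RGFP966_KLA, 61.1% in Pgc1b_flox_Cre_KLA and 90% in TBK1i_KLA.

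HDAC3 is the histone deacetylase that works with NCoR. With its inhibitor RGFP966 the macrophages given KLA held more mRNA of all 3 ELR ligands and less of all 3 Cxcr3 ligands. These 3 members called higher and 3 lower stood beside 15.8% and 9.54% of all genes tested. Cxcl1 was 188 and 173 CPM against 15.3 and 22.6 CPM with KLA alone, a log2 fold change of 3.24 ± 0.09 (SE). Cxcl2 was 1847 and 1686 against 404 and 529 CPM (1.92 ± 0.11, SE), and Cxcl3 was 101 and 87.8 against 15.2 and 22.3 CPM (2.32 ± 0.12, SE). No library of one group overlapped the other for these genes. Cxcl9 fell from 840 and 645 to 138 and 148 CPM (-2.38 ± 0.09, SE), Cxcl10 from 6463 and 6047 to 2480 and 2691 CPM (-1.27 ± 0.05, SE), and Cxcl11 from 66 and 65.3 to 26.6 and 30.1 CPM (-1.21 ± 0.09, SE). All 6 calls held without any 1 library, including the RGFP966_KLA library whose name carries a stamp 14 days later than the others. Cxcl16 (-0.11 ± 0.05, SE) and Cxcl14 (-0.34 ± 0.24, SE) were not called. The neutrophil markers summed to 22 CPM on average with RGFP966 and 7.23 CPM without, and their part was not tested. Against Veh, RGFP966_KLA had 7 members higher and 1 lower, beside 28% and 26.3% of all genes. Even with RGFP966, Cxcl10 stayed 1011-fold above Veh.

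Pgc1b encodes PGC1β, a transcriptional coactivator. In cells labelled Pgc1b flox/flox, LysMCre none of the members was called at vehicle by edgeR, where 0.164% of all genes were called higher and 0.139% lower. DESeq2 also called none, and at an unadjusted p below 0.05 by edgeR 3 of the 8 members passed, Cxcl1, Cxcl3 and Cxcl14. The share of all genes at that unadjusted threshold is not given, so the count is not read as a result about the members. At KLA, 3 members were called higher and 4 lower than in Pgc1b flox/flox cells, beside 13.2% and 12.9% of all genes. Cxcl1 was 660 and 698 CPM with Cre and 151 and 156 CPM without (log2 fold change 2.14 ± 0.07, SE), and Cxcl2 was 3430 and 3377 against 1916 and 2026 CPM (0.79 ± 0.06, SE). Cxcl2 had its highest level of the study in this group. Cxcl1 was at 679 CPM on average here and at 656 CPM in TBK1i_KLA, whose libraries overlapped, and with joint TMM or plain CPM TBK1i_KLA was the higher of the pair. Cxcl3 differed by 0.09 ± 0.07 (SE), with overlapping libraries. Cxcl10 fell from 7145 and 7298 to 2563 and 2782 CPM (-1.43 ± 0.06, SE), Cxcl9 from 105 and 85.8 to 19.9 and 29.4 CPM (-1.96 ± 0.16, SE), and Cxcl11 from 39 and 35.3 to 6.06 and 8.93 CPM (-2.31 ± 0.22, SE). Cxcl16 fell by 0.90 ± 0.07 (SE) on the log2 scale. The neutrophil markers summed to 2.12 CPM with Cre and 5.24 CPM without. The macrophage markers summed to 12112 and 17335 CPM, with 4 of 8 called lower. Lyz2, the gene at the locus that carries Cre, is 1 of these 8 and was by itself at 4461 and 8166 CPM. The part of either list was not tested. Cxcl14 was 22.3 and 22.7 against 14.4 and 15.6 CPM (0.59 ± 0.17, SE), just above the fold threshold. Its call was lost under DESeq2 (0.58) and without Pgc1b_flox_KLA replicate 1 (0.55) or Pgc1b_flox_Cre_KLA replicate 2 (0.58).

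TBK1 is the kinase that activates IRF3 downstream of TLR4. With the TBK1 inhibitor the Cxcr3 ligands were at or below 7.44 CPM after KLA, whereas the ELR ligands were present at or above their control level. In all, 2 members were called higher and 5 lower, beside 15% and 18.3% of all genes tested. Cxcl10 was 6.31 and 7.44 CPM against 6027 and 6159 CPM in DMSO_KLA, a log2 fold change of -9.80 ± 0.06 (SE). Cxcl9 was 0.902 and 1.01 against 222 and 231 CPM (-7.88 ± 0.14, SE). Cxcl11 held 0 counts in both inhibitor libraries, where 3 counts would be 0.301 and 0.338 CPM. The macrophage markers summed to 24822.5 CPM in TBK1i_KLA and 17806 CPM in DMSO_KLA, with 3 of 8 called higher and 2 lower. Lyz2, 1 of these 8, was by itself at 12717 and 7342 CPM. The neutrophil markers summed to 12.9 and 12.5 CPM and the stromal and endothelial markers to 25 and 38.4 CPM. The part of these lists was not tested. Against DMSO_Veh, TBK1i_KLA had 6 members higher and 1 lower, beside 26.8% and 30.5% of all genes. Cxcl10 in TBK1i_KLA was still 2.12-fold above DMSO_Veh and Cxcl9 3.04-fold, the latter resting on 9 counts in each library and on 10 and 0 counts in DMSO_Veh. That Cxcl9 call was lost without DMSO_Veh replicate 2 (log2 fold change 0.65) and under DESeq2 (1.66, adjusted p = 0.277).

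Cxcl3 reached its highest level of the study with the TBK1 inhibitor, 778 and 879 CPM against 118 and 148 CPM in DMSO_KLA (log2 fold change 2.64 ± 0.12, SE). Cxcl1 was 610 and 701 against 152 and 182 CPM (1.97 ± 0.05, SE). Cxcl2 was 1955 and 2242 against 1434 and 1681 CPM, which did not overlap, but its fold of 1.35 stayed under the threshold. Cxcl16 fell by 0.72 ± 0.04 (SE) and Cxcl14 by 0.81 ± 0.16 (SE), and the Cxcl14 call was lost without TBK1i_KLA replicate 1 (-0.56). Summed per kb, the 8 members came to 3844 ± 335 with the inhibitor and 8050 ± 292 in DMSO_KLA, and the ELR share went from 21.8% ± 1.77 to 90% ± 0.675.

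Set side by side, the HDAC3 inhibitor, the TBK1 inhibitor and the Pgc1b genotype each gave higher Cxcl1 and lower Cxcl9, Cxcl10 and Cxcl11 at KLA, in experiments that shared no library. Their calls differed for Cxcl3, which rose with RGFP966 and the TBK1 inhibitor and was not called with Cre, for Cxcl2, which was not called with the TBK1 inhibitor, and for Cxcl14 and Cxcl16. Differences in size between these 3 comparisons were not tested.

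**Figure D3:**
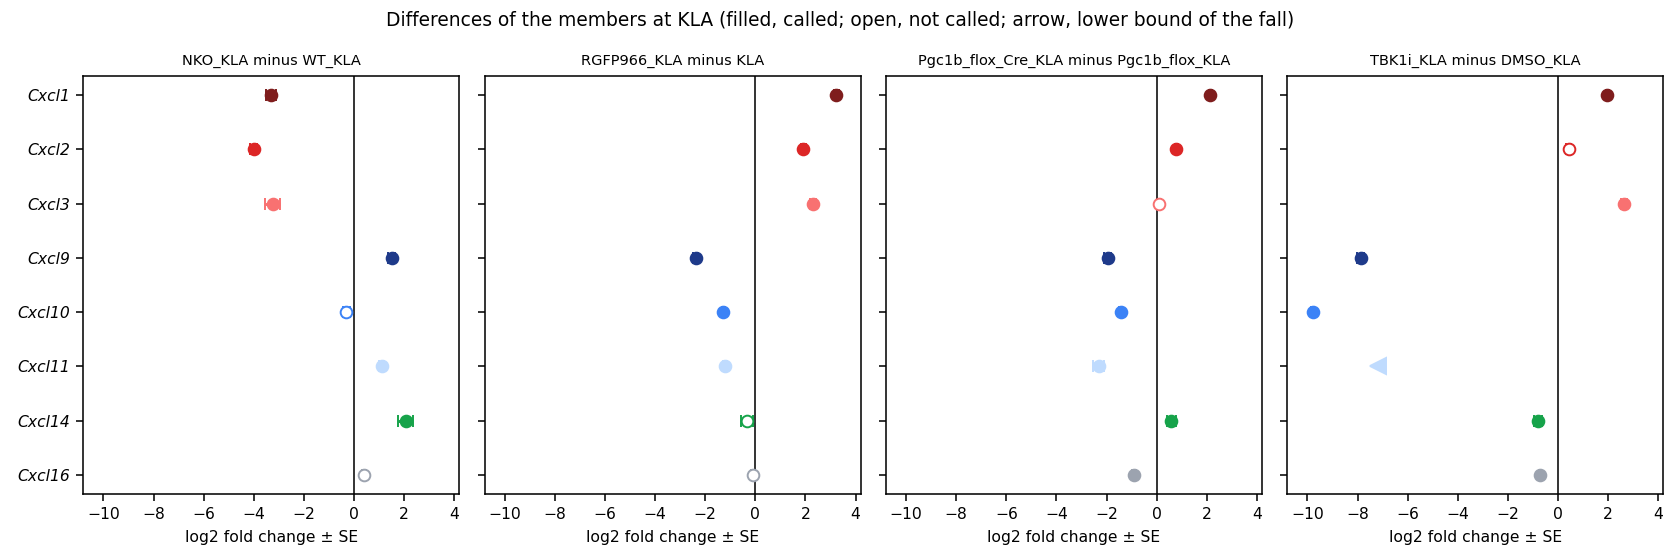
Log2 fold change ± SE (x axis) of each member (y axis) at KLA in NKO, with RGFP966, with Pgc1b flox/flox, LysMCre and with the TBK1 inhibitor, each against its own KLA control, with filled points for called genes. The ELR ligands lie left of 0 in NKO_KLA (-3.25 to -3.99) and right of 0 in the other 3 panels, where Cxcl3 with Cre (0.09) and Cxcl2 with the TBK1 inhibitor (0.43) are open, and the arrow for Cxcl11 is the bound of at least 147-fold lower.

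NKO macrophages at KLA showed the opposite direction for Cxcl1, Cxcl9 and Cxcl11, while the sign for Cxcl10 was not reversed. Cxcl14 was called higher here and also in Pgc1b_flox_Cre_KLA. The 3 ELR ligands were lower and Cxcl9, Cxcl11 and Cxcl14 higher than in WT_KLA, beside 19% and 21% of all genes called lower and higher. Cxcl2 was 30.8 and 30.9 CPM against 483 and 500 CPM (log2 fold change -3.99 ± 0.14, SE), Cxcl1 was 4.47 and 2.76 against 32.4 and 39.8 CPM (-3.30 ± 0.21, SE), and Cxcl3 was 1.55 and 1.9 against 17.4 and 15.5 CPM (-3.25 ± 0.29, SE). Cxcl9 was 1342 and 1465 against 510 and 474 CPM (1.51 ± 0.14, SE), and Cxcl11 was 177 and 196 against 89.1 and 84.6 CPM (1.10 ± 0.09, SE), its highest level of the study. Cxcl10, at 5632 and 5456 against 7012 and 6781 CPM, was not called (-0.31 ± 0.14, SE, adjusted p = 0.0723 by edgeR's quasi-likelihood test). ELR ligands were 0.539% ± 0.00719 of the summed members per kb, against 6.8% ± 0.323 in WT_KLA. The neutrophil markers summed to 3.57 CPM in NKO_KLA and 8.17 CPM in WT_KLA, with 2 of 8 called lower. The macrophage markers summed to 13887 and 21567 CPM, with 3 of 8 called lower and 2 higher. Lyz2, the gene at the locus that carries Cre, is 1 of these 8 and was by itself at 3126 and 9104 CPM. The part of either list was not tested.

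The stamp of NKO_KLA is 1401 days earlier than that of WT_KLA. Genotype cannot be told apart from date stamp in this pair, nor from the Xist and Y-linked counts that differ between these libraries. NKO_KLA was also set against the KLA controls of the other experiments in a joint fit of the KLA libraries. All 4 control groups carry later stamps than NKO_KLA, so no choice of control separates genotype from stamp. The 4 comparisons also share the same NKO_KLA libraries. The same 6 members were called in the same direction against all 4 control groups. The log2 fold change ranged from -2.68 to -5.55 for Cxcl1, from -4.01 to -6.00 for Cxcl2 and from -3.27 to -7.94 for Cxcl3. It ranged from 0.62 to 3.86 for Cxcl9, from 1.09 to 2.32 for Cxcl11 and from 0.82 to 2.42 for Cxcl14. Pgc1b_flox_KLA, which has the same Xist and Y-linked pattern as NKO_KLA, gave -5.39, -6.00 and -7.94 for the ELR ligands and 3.86 for Cxcl9. It belongs to another experiment, with ELR levels above those of WT_KLA and KLA and the lowest Cxcl9 of the 4 controls. The part of the Xist and Y-linked pattern was not tested. Cxcl10 lay between -0.18 and -0.47 and its fold stayed under 1.5 against all 4.

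**Figure D4:**
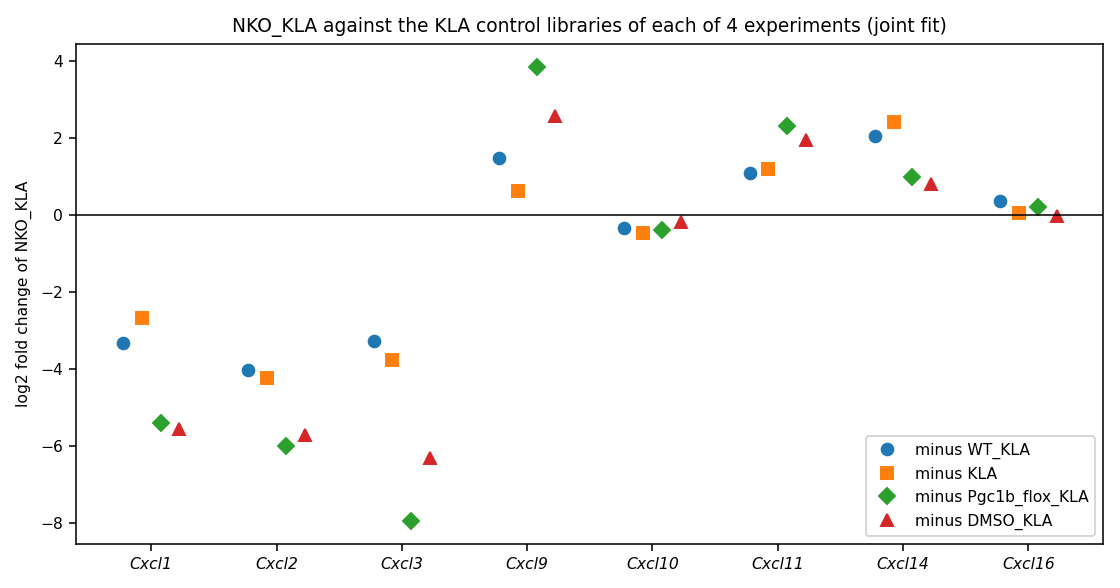
Log2 fold change of NKO_KLA (y axis) for each member (x axis) against the KLA control libraries of each of the 4 experiments, from 1 joint fit. All 4 points of Cxcl1, Cxcl2 and Cxcl3 lie at -2.68 or lower, all 4 of Cxcl9, Cxcl11 and Cxcl14 at 0.62 or higher, and those of Cxcl10 and Cxcl16 between -0.47 and 0.38.

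At RANKL the ELR ligands went the other way. NKO cells held more of Cxcl1, Cxcl2, Cxcl3 and Cxcl14 and less Cxcl10, 4 members called higher and 1 lower beside 6.21% and 6.99% of all genes. Cxcl3 was 25.2 and 27.8 CPM against 4.71 and 5.3 CPM in WT_RANKL (log2 fold change 2.40 ± 0.20, SE), Cxcl2 was 16.6 and 17 against 2.61 and 5.09 CPM (2.14 ± 0.27, SE), and Cxcl1 was 2.44 and 2.73 against 0.458 and 0.488 CPM (2.42 ± 0.41, SE). Cxcl10 fell from 42.2 and 34.9 to 18.1 and 15.2 CPM (-1.21 ± 0.23, SE). None of these pairs overlapped, and these groups share a date stamp and a time. All 4 tested members of the other CXC chemokines, among them Cxcl5 at 8.16 against 2.83 CPM, were also called higher in NKO_RANKL. The neutrophil markers summed to 1802 CPM in NKO_RANKL and 1369 CPM in WT_RANKL on average, with none of the 8 at 0, and their part in these differences was not tested.

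At poly I:C, NKO cells held less of 2 Cxcr3 ligands and more Cxcl1 and Cxcl14, 2 members called in each direction beside 2.92% of all genes lower and 3.01% higher. Cxcl9 fell from 2584 and 2949 to 825 and 998 CPM (-1.60 ± 0.13, SE) and Cxcl11 from 119 and 135 to 49.8 and 60.2 CPM (-1.21 ± 0.09, SE). These are the 2 Cxcr3 ligands that were higher in NKO cells at KLA. Cxcl10 was 5086 and 5416 against 7296 and 7464 CPM (-0.49 ± 0.14, SE), under the fold threshold. Cxcl1 was 3.38 and 3.73 against 1.67 and 1.44 CPM (1.19 ± 0.35, SE), and its call was lost without WT_PolyIC replicate 2 (1.09) or NKO_PolyIC replicate 2 (1.11).

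At vehicle the NKO cells were called lower for Cxcl9 and Cxcl10 and higher for Cxcl14, beside 3.8% of all genes lower and 2.4% higher. Cxcl10 was 1.08 and 0.57 CPM against 1.38 and 5.2 CPM, and Cxcl9 was 0 and 3 counts against 7 and 39 counts. Both calls were lost without WT_Veh replicate 2 (log2 fold change -0.78 for Cxcl10 and -2.22 for Cxcl9) and without either NKO_Veh library. With IFNb and with IL4 only Cxcl14 was called, beside 1.86% of all genes higher and 1.94% lower with IFNb and 1.9% and 2.33% with IL4. With IFNb, Cxcl9 was 7.51 and 7.92 CPM in NKO_IFNb and 7.96 and 7.78 CPM in WT_IFNb, and Cxcl10 overlapped as well. Cxcl16 was 169 and 172 against 216 and 293 CPM at vehicle (-0.58 ± 0.09, SE), just under the fold threshold. With IL4, Cxcl16 was 127 and 127 CPM in NKO_IL4 and 146 and 138 CPM in WT_IL4, which was not called.

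Cxcl14 was the one member called in the same direction in NKO cells in all 6 conditions. It was 41.7 and 46.6 against 28.6 and 23.9 CPM at vehicle (0.75 ± 0.17, SE), 32.6 and 26.9 against 6.88 and 7.33 CPM at KLA (2.07 ± 0.30, SE) and 79.3 and 120 against 36.7 and 34.8 CPM at RANKL (1.47 ± 0.16, SE). With poly I:C, IFNb and IL4 the log2 fold changes were 0.79 ± 0.22, 0.84 ± 0.17 and 0.77 ± 0.20 (SE). No NKO library overlapped a WT library in any condition. With 2 libraries in a group this also occurs without a call, as for Cxcl10 at poly I:C. The share of all genes that lay apart was not counted. The Cxcl14 calls sit near the fold threshold at vehicle, poly I:C, IFNb and IL4, where at least 1 library left out ended each of them. The log2 fold change was then 0.63 without WT_Veh replicate 2 and 0.67 without NKO_Veh replicate 2, 0.73 without WT_IFNb replicate 1, 0.68 to 0.79 for the libraries that ended the poly I:C call and 0.68 to 0.87 for the IL4 call, lost with any of its 4. The RANKL call was lost when only its 2 groups were fitted (1.46, adjusted p = 0.0628, edgeR). The 6 stromal and endothelial markers summed on average to 54.2 CPM in NKO_Veh and 78.4 CPM in WT_Veh, 250 and 187 CPM at RANKL, and 21.6 and 6.53 CPM at KLA. In NKO and WT they summed to 55.4 and 105 CPM at poly I:C, 55.7 and 82.1 CPM at IFNb, and 79.3 and 130 CPM at IL4. Their part in the Cxcl14 values was not tested.

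Whether the genotype changed a response was tested by interaction terms. For KLA 3 members were called higher and 2 lower in NKO cells, beside 19.9% and 17% of all genes, and for RANKL 4 higher and 0 lower, beside 7.26% and 6.97%. No member was called by edgeR for poly I:C, IFNb or IL4, where 2.13%, 0.552% and 0.351% of all genes were called higher and 1.1%, 0.0522% and 0.254% lower. At an unadjusted p below 0.05 edgeR gave 4, 3 and 2 members in those 3 terms. DESeq2 called 0, 2 and 1. The shares of all genes under these other rules are not given, so the counts are not read as a result about the members. For KLA in Pgc1b flox/flox, LysMCre cells 1 member was called higher and 3 lower, beside 11.6% and 11.2% of all genes.

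**Figure D5:**
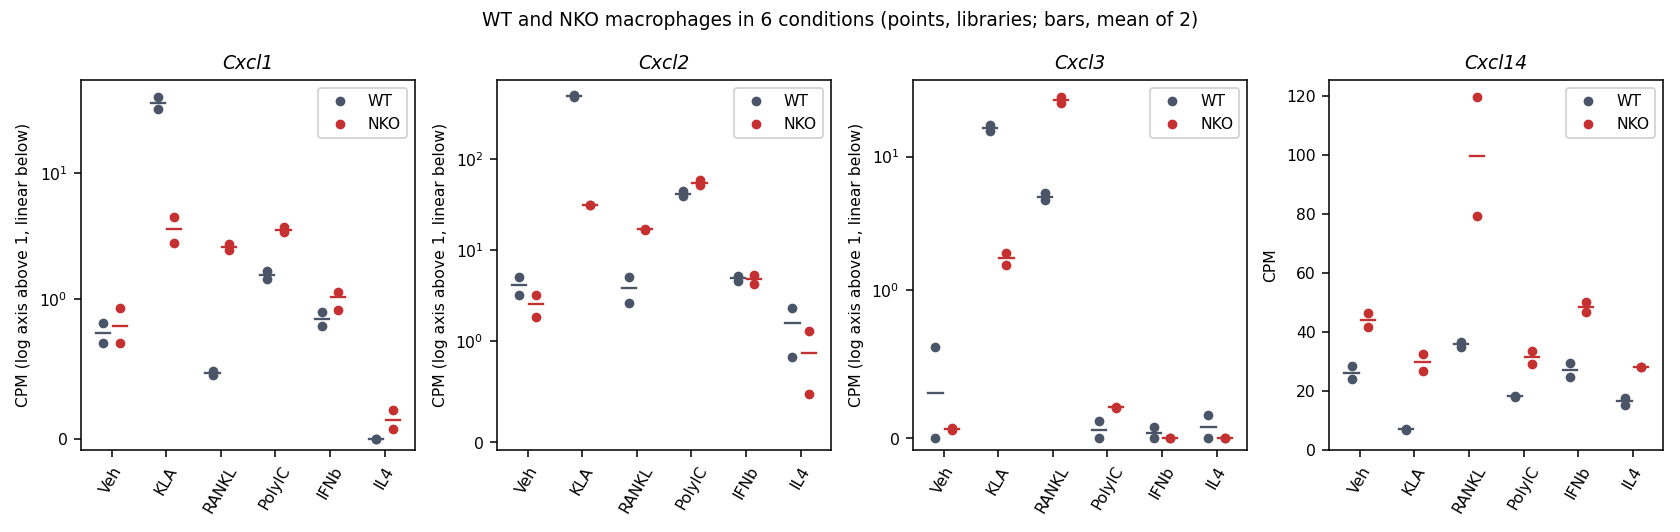
CPM of Cxcl1, Cxcl2, Cxcl3 and Cxcl14 (y axis, log above 1 except for Cxcl14) in WT and NKO libraries under 6 conditions (x axis), with bars at the mean of 2. The ELR ligands are lower in NKO at KLA and higher at RANKL, and Cxcl14 is higher in NKO in every condition.

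The receptors and proteases of the family were followed as fixed lists. Cxcr4, the receptor of Cxcl12, had the largest called fall among the receptors with KLA, from 228 to 1.98 CPM in WT cells (log2 fold change -6.84 ± 0.13, SE), and the log2 fold change was -6.26 ± 0.14, -6.29 ± 0.25 and -7.14 ± 0.11 (SE) in the RGFP966, Pgc1b and TBK1i experiments. Of 5 receptors tested in the NCoR experiment 1 was called higher and 2 lower, beside 25.4% and 32.3% of all genes. The 1 called higher, Cxcr5, was at 0.25 ± 0.353 CPM in WT_KLA and 0 CPM in WT_Veh, so this call rests on few counts. Both receptors tested in each of the RGFP966, Pgc1b and TBK1i experiments were called lower, beside 32.2%, 25.7% and 29.3% of all genes. Adam17, a sheddase of membrane proteins, rose with KLA in all 4 experiments (1.69 ± 0.06, SE, in WT cells, from 298 to 962 CPM), the largest call in the list of Adam10, Adam17 and Dpp4.

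Genes of the NFκB and interferon arms were counted the same way. These lists hold targets and feedback genes, such as Il1b, Tnf, Nfkbia, Irf7 and Socs1, beside signalling genes. Whether their changes act on the members was not tested. All 12 genes of an NFκB list rose with KLA in each experiment, led by Il1b at 6016 CPM in WT_KLA against 4.59 CPM in WT_Veh, and 11 to 12 of 13 genes of an interferon list rose, beside 22.8% to 29.6% of all genes. With the TBK1 inhibitor 10 of the 13 interferon genes fell and none rose, led by Irf7 from 2266 to 4.51 CPM, whereas 1 of 12 NFκB genes rose (Bcl3, 0.88 ± 0.05, SE) and none fell, beside 18.3% of all genes lower and 15% higher. In the Pgc1b_flox_Cre_KLA group 6 of 13 interferon genes fell, led by Irf7 (-3.01 ± 0.07, SE), and 5 of 12 NFκB genes rose, led by Bcl3 (1.19 ± 0.08, SE), beside 12.9% of all genes lower and 13.2% higher. With RGFP966, 4 of 13 interferon genes and 2 of 12 NFκB genes fell, led by Socs1 (-2.42 ± 0.08, SE) and Relb (-0.96 ± 0.07, SE), beside 9.54% of all genes lower. In NKO_KLA 3 of 13 interferon genes rose, led by Irf8 at 2436 against 553 CPM, and 2 fell, among them Ifnb1 at 1.75 against 5.94 CPM, while 2 of 12 NFκB genes fell, led by Il1b at 972 against 6016 CPM. These counts are near the 21% of all genes called higher and 19% called lower there. Of 5 mRNA decay factors, Zfp36, which encodes tristetraprolin, fell by 1.88 ± 0.04 (SE) with the TBK1 inhibitor and by 1.11 ± 0.07 (SE) in Pgc1b_flox_Cre_KLA, where Zfp36l2 was also lower and Zfp36l1 higher (0.64 ± 0.16, SE). With RGFP966 the 1 factor called was Zfp36l2, higher by 0.71 ± 0.07 (SE). In NKO_KLA 2 factors were called higher, led by Zfp36l2 (1.44 ± 0.08, SE), and Elavl1 was lower (-0.66 ± 0.06, SE), while Zfp36 was not called. The median log2 fold changes of the interferon list were -2.20, -0.40, -0.11 and 0.18 in the TBK1i, Pgc1b, RGFP966 and NKO comparisons at KLA, against 0.01, 0.00, 0.03 and 0.07 for all genes tested.

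Across the 22 group means, with the mean of each experiment removed, the members moved together to different degrees. Pearson's r of log2(CPM + 1) was 0.96 for Cxcl1 with Cxcl2, 0.93 for Cxcl1 with Cxcl3 and 0.87 for Cxcl2 with Cxcl3, and 0.96 to 0.98 among Cxcl9, Cxcl10 and Cxcl11. Between an ELR and a Cxcr3 ligand it ran from 0.37 for Cxcl3 with Cxcl9 to 0.82 for Cxcl2 with Cxcl10, and Cxcl2 had 0.89 with Cxcl16, above its value with Cxcl3. Cxcl14 had negative values with all other members (-0.28 to -0.51), and Cxcl16 had 0.92 to 0.94 with the Cxcr3 ligands. The group means share the large KLA and poly I:C responses, and these values are descriptions without a test. Among 10861 genes tested in all experiments, the closest to Cxcl1 were Abhd17c (0.97), Cxcl2 and Il1bos (0.95), to Cxcl2 they were Ptges, Cxcl1 and Cop1 (0.96 each), and to Cxcl3 they were Pdgfrb, Abhd17c and Ppp3cc (0.95 each). The closest to Cxcl10 were Sap30, Papd7 and Gm45935 (0.99 each). Lhx2 led for Cxcl9 and for Cxcl11 (0.99 each), followed by Rnf31 and Pcgf5 for Cxcl9 and by Nod1 and Tmco3 for Cxcl11. Cxcl14 had no close match, with Mmp27 at 0.87, Lat at 0.82 and Ttc12 at 0.82. Cxcl16 was closest to Zmynd15 (0.99), the gene that shares its exon bases, then to Ccl5 and Nfkbil1 (0.99 and 0.98). With Spearman's rho in place of Pearson's r, Zmynd15 and Ccl5 also led for Cxcl16 (0.98 and 0.97) and Cxcl2 led for Cxcl1 (0.97). The 3 closest were then Trim30a, Eif2ak2 and Morc3 for Cxcl10 (0.97 each), AW011738, Tgs1 and BC147527 for Cxcl9 (0.98, 0.97 and 0.96) and D730005E14Rik, Phf6 and Adprm for Cxcl11 (0.95, 0.95 and 0.94), so the names nearest to the Cxcr3 ligands depend on the measure.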

How the data were processed

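Poly(A) RNA-seq of BMDMs was read from 4 tables deposited by the authors, holding 24, 6, 8 and 6 libraries. The deposited values were raw counts per gene: per the file headers and the study's methods, STAR alignments to mm10 were counted in RefSeq exons with HOMER, 1 transcript per gene, replicates not pooled. A count table shows no molecular identifiers, so intervals and floors cover counting error only. Gene counts per library were 8323493 to 16783155. Groups came from the sample labels. Nothing in the labels says that the 2 libraries of a group came from separate cultures, so p-values measure the spread between libraries, which may be technical.

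Each table was fitted alone in R 4.3.3 with edgeR 4.0.16 (TMM, filterByExpr, all groups, robust quasi-likelihood test), with Benjamini-Hochberg adjustment over 13407, 12196, 12205 and 12332 genes in the NCoR, RGFP966, Pgc1b and TBK1i tables. A call needed an adjusted p below 0.05 and a fold above 1.5. The SE of a log2 fold change was its absolute value over the square root of the test's F statistic. It does not cover the change with a library left out. The scripts were tested on simulated data. A fold against a group without counts was a bound at 3 counts per library, and groups with 1 to 3 counts got a 95% counting interval. Libraries that do not overlap are described without a test, and the share of all genes for which this held was not counted. Alternatives were DESeq2 1.42.0, its size factors, other count filters, only the compared groups, a replicate block, leaving out each library, no fold threshold, plain CPM, joint TMM, Spearman's correlation and, for NKO at KLA, a joint fit of all KLA libraries. The text names the 8 members, the 3 genes most correlated with each, and from each fixed list the largest called change in each direction. Members and lists were chosen with earlier results of these data known. Ppargc1b, Ppbp, the sex-linked genes and the genes that share exon bases were named after their values were seen. Promoter sequences were from RefSeq, which matched 6 of 8 members.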

Additional observations from a re-analysis of the deposited data

Results flagged for a closer look

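In 13 cases the response of a member to a treatment differed between genotypes by the interaction term of edgeR's quasi-likelihood test. The values are differences of log2 fold changes, and 19.9% and 17% of all genes were called higher and lower in the NKO by KLA interaction.

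The KLA response was lower in NKO than in WT cells for Cxcl1 by -3.38 and for Cxcl2 by -3.24, and higher for Cxcl9 by 5.42, for Cxcl14 by 1.32 and for Cxcl16 by 0.97. The Cxcl9 value rests on few counts at vehicle and lost its call without WT_Veh replicate 2 (3.73). Genotype and date stamp cannot be told apart in NKO_KLA.

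The RANKL response was higher in NKO cells for Cxcl1 by 2.35, for Cxcl2 by 2.89, for Cxcl3 by 4.51 and for Cxcl14 by 0.72, where 7.26% of all genes were called higher. Cxcl3 held 0 and 9 counts in WT_Veh, and without replicate 2 its value was -0.43. The Cxcl14 call was lost without NKO_RANKL replicate 2 (0.40), NKO_Veh replicate 1 (0.64), WT_Veh replicate 1 (0.58) or either WT_RANKL library (0.68 and 0.76).

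The KLA response in Pgc1b flox/flox, LysMCre cells was higher for Cxcl2 by 0.93 and lower for Cxcl3 by -5.02, for Cxcl10 by -1.78 and for Cxcl16 by -0.84, where 11.6% and 11.2% of all genes were called higher and lower. Cxcl3 was at 0 counts in Pgc1b_flox_Veh, so that value depends on the prior count and is no bound, and its call was lost without Pgc1b_flox_Cre_Veh replicate 2 (-4.06).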

How the results depend on the processing

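Of the values for single members under an alternative, 1384 kept their direction and side of the threshold, 51 lost the call, 2 gained it and 2 reversed, and 9 values of a member's level in its highest group moved by more than the SD with plain CPM or joint TMM. The reversed values were Cxcl16 in NKO_KLA against DMSO_KLA (-0.025, against 0.39 within its table) and Cxcl3 in the NKO by RANKL interaction, which ranged from -0.43 to 5.49 with 1 library left out. Without a fold threshold 1 member was called lower with RANKL, 1 with poly I:C, 1 for poly I:C against IFNb and 4 in NKO at poly I:C. With a filter at a mean of 5 CPM, which removes members from the test, the counts were 1 higher with RANKL, 1 lower in NKO at KLA, 2 higher in NKO at RANKL, 1 higher in NKO at poly I:C, 1 lower in the NKO by KLA and 2 higher in the NKO by RANKL interaction. Fitted on only the compared groups, 0 were higher with IFNb, 0 lower in NKO at vehicle and 1 higher in the NKO by poly I:C interaction. Without a filter on low counts 1 was lower for poly I:C against IFNb, 1 lower in NKO at vehicle, 1 higher in the NKO by poly I:C interaction and 1 higher with Pgc1b Cre at vehicle. With DESeq2, 2 were higher in the NKO by IFNb and 1 in the NKO by IL4 interaction.

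With 1 library left out, the members called lower ranged from 0 to 2 with RANKL, 0 to 1 with poly I:C, 0 to 1 with IFNb, 2 to 6 with IL4, 0 to 1 for poly I:C against IFNb and 0 to 4 in NKO at vehicle. Those called higher ranged from 1 to 2 with IFNb, 0 to 1 in NKO at vehicle, 0 to 1 at poly I:C, 0 to 1 at IFNb and 0 to 0 at IL4, and from 0 to 2, 0 to 3 and 0 to 2 in the NKO interactions with poly I:C, IFNb and IL4. The highest counts in NKO at vehicle (4) and in the 3 interactions came without WT_Veh replicate 1, and the lowest with IL4 (2) without WT_IL4 replicate 2. Same-numbered libraries did not deviate together (correlations -0.08 to 0.07). With so few libraries this cannot tell whether they shared an animal or a culture. The replicate block gave 1 member lower in NKO at vehicle and 1 higher with Pgc1b Cre at vehicle and kept the other member counts within 1.5 times. Plain CPM was 0.695 to 1.41 times and joint TMM 0.988 to 1.29 times the level printed. The cause of these changes was not tested. Low counts limit Cxcl1, Cxcl3, Cxcl9 and Cxcl11 at vehicle and IL4, and also Cxcl3 with poly I:C (1 and 0 counts in WT, 2 and 2 in NKO cells), Cxcl11 with IFNb and RANKL (0 to 4 counts), and Cxcl9 and Cxcl11 in TBK1i_KLA (9 and 9, 0 and 0 counts).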
